A study of Mus musculus with 10 samples.

Results

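Accessibility of chromatin at the genes of the mitochondrial respiratory chain was compared between naive CD4 T cells with deleted and with intact Satb1, which encodes a chromatin organiser abundant in T cells. Peaks were taken as belonging to these genes by the symbol of the nearest gene, which had to begin with Nduf, Uqcr, Cox4 to Cox8, Atp5 or Sdha to Sdhd. This gave 243 peaks at 88 genes, of 61581 peaks in all, 10 of which lie in mitochondrial DNA and none of which is among the 243. ATAC-seq, in which a transposase inserts sequencing adapters into open DNA, was run on 60000 sorted cells per library. The cells were CD3+CD4+CD25-CD44low/-CD62L+ and came from spleen and lymph node of Satb1fl/fl x CD4-CreERT2wt/+ mice, which carry floxed Satb1 alleles and a tamoxifen-inducible Cre under CD4 control. The 5 KO libraries were made from tamoxifen-treated mice and the 5 WT libraries from untreated mice that carried the same alleles. No WT library was exposed to tamoxifen, so the deletion and the drug cannot be told apart. The labels give neither age nor sex and do not tie libraries to single animals, so every p-value measures the spread between these libraries only.

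The respiratory chain passes electrons from NADH and succinate to oxygen through complexes I to IV and pumps protons across the inner mitochondrial membrane, and complex V, the ATP synthase, uses that gradient to make ATP. Most subunits are encoded in the nucleus and imported, while a small set of core subunits is encoded by mitochondrial DNA. Resting T cells draw most of their ATP from this chain, and its nuclear genes are active in nearly every cell type. Many of their promoters are CpG-rich and bind the factors NRF1, GABP (an ETS factor) and YY1.

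The 88 genes comprised 7 core subunits of complex I, 27 accessory subunits and 6 assembly factors of complex I, 4 subunits and 4 assembly factors of complex II, 7 subunits of complex III, 17 of complex IV and 16 of complex V. Of their 243 peaks, 149 (61.3%) were annotated as promoter, against 36.6% of all nuclear peaks, and 138 of these lay within 1 kb of the start site. The other 94 peaks were 49 distal intergenic, 34 intronic, 4 in 3' UTRs, 4 downstream, 2 exonic and 1 in a 5' UTR. A promoter peak was present at 85 of the 88 genes, and 22 genes had a single peak. Cox7a2l had the most peaks with 17, followed by Ndufaf6 with 9 and Atp5o with 8.

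The promoters were searched for the letters that these factors bind. RefSeq promoter windows (GRCm38.p6, from 250 bases before to 50 after the start site) were matched for 73 of the 88 genes, and 72 of them overlapped a promoter peak. The NRF1 letters GCGCANGCG, searched on both strands as all motifs here, were present in 21 of these 72 windows (29.2%), against 15.8% of all 10698 windows that overlapped a promoter peak. The YY1 letters AAGATGGC were present in 9 (12.5%, against 5.09%), the ETS letters CCGGAAGT in 5 (6.94%, against 9.90%), the SP letters GGGCGG in 35 (48.6%, against 69.9%) and the CRE letters TGACGTCA in 3 (4.17%, against 3.70%). Median GC content was 58.8% in these windows and 62.3% in all open windows. These are counts of letters in a window and not binding sites. A start site of another gene on the opposite strand lay within 1000 bp upstream in 18 of the 72 (25%), against 25.1% of all open windows. Examples are Sdhd and Timm8b, whose start sites lie 52 bp apart, and Sdha and Ccdc127, 77 bp apart. The windows below are examples. Ndufa5 and Cox7b had the lowest-p promoter differences in each direction, Cox7a2l had a called distal peak, and Sdha, Uqcrc1, Atp5h and Ndufs6 show the NRF1, ETS and YY1 letters. Ndufaf6, the other gene with a called distal peak, had no matched window. Sequences are from RefSeq, 5' to 3' along the gene's strand, with matches to the NRF1, ETS, YY1 or CRE letters or their reverse complement in capitals.
Cox7b, chrX:106015450-106015749, plus strand: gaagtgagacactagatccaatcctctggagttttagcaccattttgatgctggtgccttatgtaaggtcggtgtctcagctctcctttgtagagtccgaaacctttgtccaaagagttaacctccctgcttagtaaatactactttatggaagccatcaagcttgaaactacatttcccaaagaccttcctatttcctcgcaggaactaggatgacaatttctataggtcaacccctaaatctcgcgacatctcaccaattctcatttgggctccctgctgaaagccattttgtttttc
Ndufa5, chr6:24527641-24527940, minus strand: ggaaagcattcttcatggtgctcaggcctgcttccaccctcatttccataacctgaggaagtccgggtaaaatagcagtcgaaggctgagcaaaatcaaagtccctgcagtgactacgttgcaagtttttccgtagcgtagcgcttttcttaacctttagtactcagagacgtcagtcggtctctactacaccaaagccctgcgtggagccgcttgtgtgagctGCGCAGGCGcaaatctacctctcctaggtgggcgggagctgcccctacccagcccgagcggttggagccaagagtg
Cox7a2l, chr17:83514284-83514583, minus strand: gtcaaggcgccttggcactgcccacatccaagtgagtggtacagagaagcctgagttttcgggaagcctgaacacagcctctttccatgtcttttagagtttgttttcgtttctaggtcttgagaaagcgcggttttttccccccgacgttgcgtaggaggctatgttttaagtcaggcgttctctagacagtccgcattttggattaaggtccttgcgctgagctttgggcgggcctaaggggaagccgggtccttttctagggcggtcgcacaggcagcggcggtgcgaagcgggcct
Sdha, chr13:74350191-74350490, minus strand: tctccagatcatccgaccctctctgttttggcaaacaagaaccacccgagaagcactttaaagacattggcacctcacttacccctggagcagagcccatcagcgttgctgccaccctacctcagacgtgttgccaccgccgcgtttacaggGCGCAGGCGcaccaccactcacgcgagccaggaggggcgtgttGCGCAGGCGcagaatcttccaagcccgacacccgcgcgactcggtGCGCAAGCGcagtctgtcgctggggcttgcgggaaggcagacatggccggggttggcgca
Uqcrc1, chr9:108936398-108936697, plus strand: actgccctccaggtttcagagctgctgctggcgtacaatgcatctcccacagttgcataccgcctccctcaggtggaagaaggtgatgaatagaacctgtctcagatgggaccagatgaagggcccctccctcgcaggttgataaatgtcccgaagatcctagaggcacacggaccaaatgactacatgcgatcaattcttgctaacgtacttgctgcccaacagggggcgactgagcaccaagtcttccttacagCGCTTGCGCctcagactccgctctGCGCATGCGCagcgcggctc
Atp5h, chr11:115419870-115420169, minus strand: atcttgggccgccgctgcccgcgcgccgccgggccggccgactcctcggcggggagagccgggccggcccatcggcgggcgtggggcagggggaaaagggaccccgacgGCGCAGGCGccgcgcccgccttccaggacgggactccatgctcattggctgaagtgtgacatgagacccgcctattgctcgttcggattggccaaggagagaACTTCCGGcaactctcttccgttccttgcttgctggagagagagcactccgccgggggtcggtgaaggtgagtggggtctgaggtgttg
Ndufs6, chr13:73328433-73328732, minus strand: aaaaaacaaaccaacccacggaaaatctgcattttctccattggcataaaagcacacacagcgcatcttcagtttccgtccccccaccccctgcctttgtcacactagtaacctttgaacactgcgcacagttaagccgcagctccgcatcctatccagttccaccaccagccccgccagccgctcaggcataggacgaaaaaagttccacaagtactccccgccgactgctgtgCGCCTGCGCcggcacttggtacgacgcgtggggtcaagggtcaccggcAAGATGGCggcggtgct
Sdha and Uqcrc1 each held 3 NRF1 matches, of which 2 overlap in Uqcrc1. Ndufa5 held 1, Atp5h held 1 with 1 ETS match on the reverse strand, and Ndufs6 held 1 with 1 YY1 match. Cox7b and Cox7a2l held none of the 4 capitalised motifs.

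Libraries held 673398 to 2184717 counts in peaks, and Sample_2269_KO, Sample_2270_KO and Sample_2273_WT had the lowest totals. Levels are given as CPM (counts scaled to 1000000) of each library's total over the 34910 peaks with enough counts to test, after TMM scaling. A peak, gene or promoter was called where the quasi-likelihood test of edgeR gave a Benjamini-Hochberg adjusted p under 0.05 over all peaks, genes or promoters tested. Of the naive CD4 T cell markers examined, 11 of 12 had a promoter peak. Summed per library they had 612 to 656 CPM in KO and 590 to 628 CPM in WT, here of the whole in-peak total without TMM scaling. None of 7 B cell markers had one. Of 8 myeloid markers 2 had one (Itgam and Cd14, not Csf1r, Lyz2 or Adgre1), and of 5 NK markers 1 (Klre1, not Ncr1 or Klrb1c). Of 4 CD8 markers 2 had one (not Cd8a), and of 6 erythroid and stromal markers 4. Summed in the same way, erythroid and stromal promoters had 144 to 186 CPM in KO and 148 to 166 CPM in WT. CD8 promoters had 31.6 to 54.5 CPM in KO and 35.2 to 43.7 CPM in WT. Myeloid and NK promoters had at most 19.7 CPM in any library. Satb1 itself had 428 ± 12.0 CPM over its peaks in KO, against 373 ± 15.6 CPM in WT (SD, n = 5 each), and the floxed stretch is not named in the labels, so this does not check the groups. In these bulk libraries, a change in the share of cells of one kind and a change of accessibility per cell cannot be told apart.

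Respiratory chain accessibility as a whole was nearly equal in the 2 groups. Summed over all 243 peaks it was 5426 ± 146 CPM in KO, against 5429 ± 99.9 CPM in WT (SD, n = 5 each), a difference of -0.0574%. The KO libraries had 5556, 5604, 5361, 5267 and 5340 CPM and the WT libraries 5560, 5479, 5294, 5429 and 5382 CPM, and the groups overlapped over almost their whole range. Promoter peaks summed to 4572 ± 160 CPM in KO, against 4587 ± 95.5 CPM in WT, and the other peaks to 853 ± 39.9 CPM in KO, against 842 ± 39.1 CPM in WT. Promoters held 84.3% ± 0.937 of this accessibility in KO and 84.5% ± 0.682 in WT.

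No respiratory chain gene was called over its summed peaks, and none over its promoter peaks. Of 86 genes tested on all their peaks, edgeR called 0, against 2.19% of all 12489 genes, and 4 had an unadjusted p under 0.05 (Cox7b, Ndufaf6 and Ndufv2 with higher values in KO, Ndufa5 with lower), where 1556 of all 12489 did. DESeq2 and limma-voom also called 0, with 3 and 4 genes at an unadjusted p under 0.05. Of 82 genes tested on promoter peaks alone, edgeR called 0, against 0.684% of all 10240 promoter sums, with 5 at an unadjusted p under 0.05, where 943 of the 10240 had one. DESeq2 and limma-voom called 0 of these too, with 2 and 5. At background shares this low, 0 calls among 82 to 86 genes is near what the background gives, so the counts alone say little about these genes.

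The intervals say more. For all 82 promoter sums the 95% interval of the KO over WT ratio lay within 2-fold in either direction, and for 75 of them within 1.5-fold. Over all genes, 10121 of 10240 promoter sums lay within 2-fold and 9127 within 1.5-fold. The median log2 fold change was -0.02 over the members' promoter sums, with 39 above 0 and 43 below, and -0.01 over all promoter sums. Over the members' gene sums it was -0.02, and -0.01 over all gene sums.

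**Figure D1:**
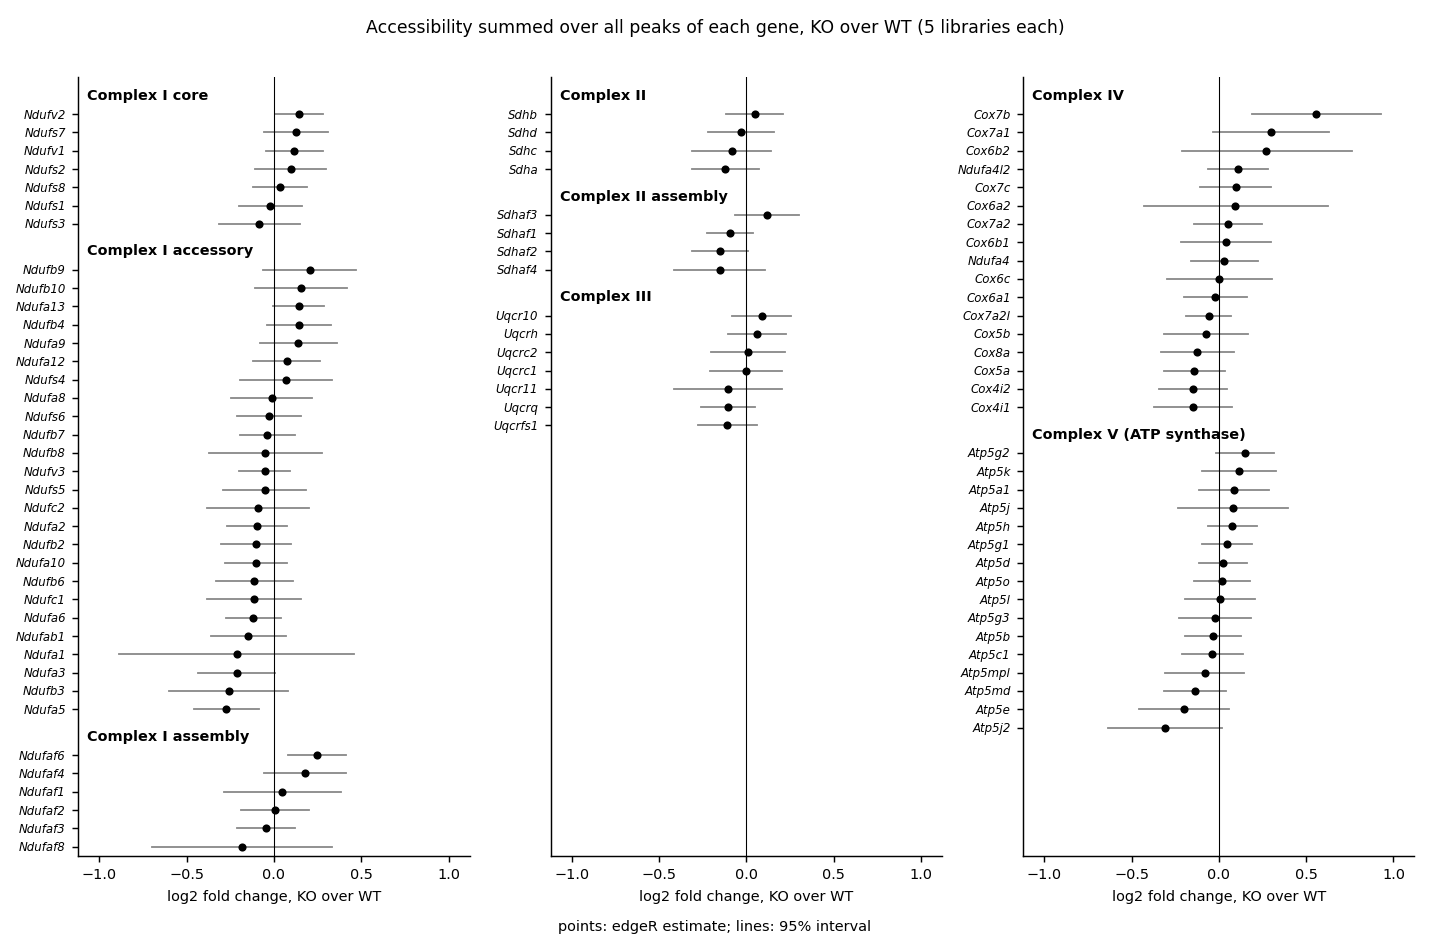
Log2 fold change (KO over WT) of accessibility summed over all peaks of each of the 86 tested genes, grouped by complex, with points for the edgeR estimate and lines for its 95% interval (5 libraries per group). Most intervals cross 0, Cox7b (0.56) lies farthest above it and Atp5j2 (-0.31) farthest below, and no gene passed the adjusted threshold.

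Complex I, the entry point for electrons from NADH, showed small differences of either sign. All 7 core subunits, which carry the flavin and iron-sulfur centres, were tested, and their promoter sums had a median log2 fold change of 0.06, with 5 above 0. Together these promoters reached 574 ± 29.2 CPM in KO, against 542 ± 27.1 CPM in WT (SD, n = 5 each), with overlapping groups. Ndufv2, an iron-sulfur subunit of the NADH-binding module, had 133, 143, 153, 147 and 134 CPM at its promoter in KO and 136, 126, 117, 134 and 128 CPM in WT. The groups overlapped, and the promoter log2 fold change of 0.15 (edgeR adjusted p = 0.539) did not pass. Ndufs8, another iron-sulfur subunit, averaged 107 ± 12.2 CPM in KO, against 101 ± 7.28 CPM in WT at its promoter (SD, n = 5 each, adjusted p = 0.941). The start-site peak of Ndufs7, which binds the last iron-sulfur centre before ubiquinone, had a log2 fold change of 0.21 ± 0.10 (SE, adjusted p = 0.350).

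The accessory subunits of complex I, which stabilise and regulate the core, had mostly negative estimates, none of them called. Of 24 tested promoter sums, 5 were above 0 and 19 below, with a median log2 fold change of -0.07, where all promoter sums had 4909 above 0 and 5331 below. Their promoters together reached 1140 ± 59.9 CPM in KO, against 1188 ± 14.8 CPM in WT (SD, n = 5 each). The KO libraries had 1187, 1214, 1067, 1107 and 1126 CPM and the WT libraries 1185, 1201, 1193, 1164 and 1199 CPM. Sample_2268_KO and Sample_2269_KO lay among or above the WT libraries, and the other 3 KO libraries lay below all of them. Ndufa5, a subunit of the arm that faces the matrix, had the smallest p among them. Its start-site peak (chr6:24527461-24527945, mm10) had 46.4, 55.3, 61.7, 51.0 and 52.4 CPM in KO and 65.2, 65.7, 65.3, 59.3 and 56.1 CPM in WT. The groups overlapped through Sample_2270_KO, Sample_2276_WT and Sample_2277_WT. The log2 fold change was -0.26 ± 0.10 (SE), a ratio of 0.729 to 0.957 at 95%, and the edgeR adjusted p was 0.155. Ndufa13, also known as GRIM-19, had a promoter log2 fold change of 0.16 (adjusted p = 0.634), and Ndufa3 had -0.21 (adjusted p = 0.551). Ndufv3 and Ndufa6, the accessory subunits with the most promoter CPM, had log2 fold changes of -0.05 and -0.11.

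Assembly factors of complex I are not part of the finished complex. Together their promoters reached 267 ± 13.1 CPM in KO, against 256 ± 13.5 CPM in WT (SD, n = 5 each), with overlapping groups. Ndufaf3, needed for the early assembly of the membrane-facing core, had 76.0 ± 6.18 CPM at its promoter in KO, against 77.8 ± 3.21 CPM in WT (SD, n = 5 each). Ndufaf2, which acts late in assembly, had 56.6 ± 12.5 CPM in KO, against 56.7 ± 4.36 CPM in WT. Ndufaf6 is described with the distal peaks.

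Complex II, the succinate dehydrogenase that links the citric acid cycle to the chain, was tested in full. Sdha, the flavoprotein that oxidises succinate, had 42.0 ± 5.61 CPM at its promoter in KO, against 49.1 ± 4.16 CPM in WT (SD, n = 5 each). Its log2 fold change of -0.16 had an adjusted p of 0.735 by edgeR. Sdhb, the iron-sulfur subunit, had 72.9 ± 7.46 CPM in KO, against 73.1 ± 3.94 CPM in WT, and the membrane anchors Sdhc and Sdhd had log2 fold changes of -0.08 and -0.04. The assembly factors Sdhaf1, which serves Sdhb, and Sdhaf2, which attaches the flavin to Sdha, had log2 fold changes of -0.08 and -0.15, and the larger of these did not pass (edgeR adjusted p = 0.585).

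At complex III, which passes electrons from ubiquinol to cytochrome c, 7 promoters were tested, 4 above 0 and 3 below, with a median log2 fold change of 0.00. Uqcrq, a small accessory subunit, had 162, 116, 173, 142 and 125 CPM at its promoter in KO and 153, 144, 143, 178 and 141 CPM in WT. The groups overlapped, with 2 KO libraries below all WT libraries and none above all of them. Uqcrh, the hinge subunit next to cytochrome c1, had 91.8 ± 11.8 CPM in KO, against 87.7 ± 6.88 CPM in WT (SD, n = 5 each). Uqcrfs1, the Rieske iron-sulfur protein, had a log2 fold change of -0.16 whose interval ran from 0.788-fold to 1.02-fold.

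Complex IV, cytochrome c oxidase, held the largest promoter difference of the chain, at Cox7b. Cox7b encodes a small membrane subunit of complex IV and lies on the X chromosome. Its start-site peak (chrX:106015595-106015821, mm10) had 18.4, 12.5, 13.3, 16.5 and 18.5 CPM in KO and 8.69, 12.1, 11.5, 12.9 and 9.46 CPM in WT. All KO libraries but Sample_2269_KO lay above all WT libraries. The log2 fold change was 0.57 ± 0.20 (SE), a ratio of 1.13 to 1.96 at 95%, and the edgeR adjusted p of 0.108 missed the threshold. Both Cox7b promoter peaks together had 19.6 ± 3.19 CPM in KO, against 13.6 ± 2.00 CPM in WT (SD, n = 5 each, log2 fold change 0.56, adjusted p = 0.179). Per length, Cox7b was among the weaker promoters of the list, at rank 73 of 85. The nuclear subunits Cox5a and Cox5b had promoter log2 fold changes of -0.10 and -0.07, and Cox7c had 0.10.

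Several subunits of complex IV exist as a ubiquitous form and a form restricted to certain tissues. In 3 pairs the 2 kinds differed in promoter level far more than KO differed from WT. Cox6a2 and Cox7a1 are the heart and skeletal muscle forms, Cox6b2 the testis form and Cox4i2 a form of lung and of hypoxic cells. Cox6a2 had 47.7 ± 13.9 CPM per kb of promoter peak in KO and 43.1 ± 5.15 in WT, and its partner Cox6a1 had 105 ± 14.0 in KO and 102 ± 11.4 in WT (SD, n = 5 each). Cox6b2 had 34.5 ± 10.6 CPM per kb in KO and 32.0 ± 9.96 in WT, and Cox6b1 had 85.0 ± 13.6 in KO and 80.8 ± 9.04 in WT. Cox7a1 had 43.4 ± 3.17 CPM per kb in KO and 35.6 ± 3.22 in WT, and Cox7a2 had 111 ± 11.3 in KO and 104 ± 8.68 in WT. In these 3 pairs the tissue form was lower in each of the 10 libraries. Ndufa4l2, a form induced in hypoxia, departed from this with 99.6 ± 8.14 CPM per kb in KO and 89.8 ± 11.4 in WT, beside its partner Ndufa4, now assigned to complex IV, at 106 ± 15.4 in KO and 101 ± 8.24 in WT. Cox6a2, Cox7a1 and Cox6b2 ranked above 13.9%, 8.71% and 3.93% of all promoter sums by level per kb, and Ndufa4l2 above 60.8%. Peaks entered the files because they were called as open, so these low levels are still peaks and not closed promoters.

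None of the isoforms was called. All 4 tested tissue-form promoters had log2 fold changes above 0, from 0.10 at Cox6a2 to 0.31 at Cox7a1, and so did 5 of the 6 promoters of ubiquitous partners. Cox7a1 had 20.8, 20.9, 21.7, 20.7 and 24.5 CPM in KO and 17.4, 18.2, 17.8, 20.02 and 15.5 CPM in WT. Every KO library lay above every WT library, yet the edgeR adjusted p was 0.597, with a ratio of 0.985 to 1.55 at 95%. Cox7a1 was the only 1 of the 86 gene sums whose groups did not overlap, against 3.23% of all gene sums. Cox4i1 and Cox4i2 had no promoter peak under their own symbols, and over their other peaks both had a log2 fold change of -0.15 (adjusted p = 0.646 and 0.582). Per length these peaks were nearly equal, with means of 55.3 CPM per kb at Cox4i1 and 55.1 at Cox4i2. Leaving out 1 library gave -0.21 to -0.05 at Cox4i1 (nearest 0 without Sample_2272_KO) and -0.21 to -0.04 at Cox4i2 (nearest 0 without Sample_2274_WT).

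**Figure D2:**
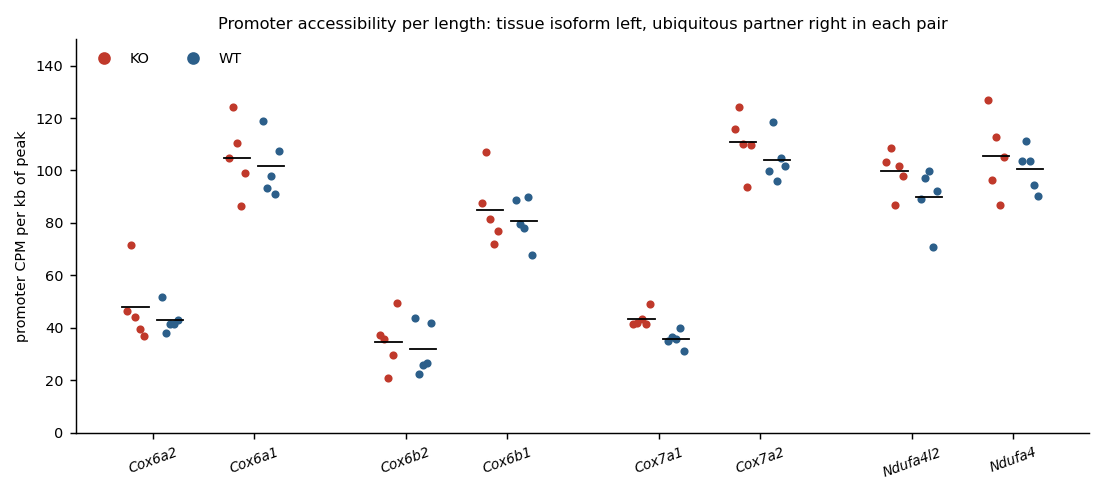
Promoter accessibility in CPM per kb of peak for 4 pairs of complex IV isoforms, tissue form left and ubiquitous partner right, with points for the KO and WT libraries and lines for means (n = 5 each). Cox6a2, Cox6b2 and Cox7a1 lie below their partners in every library, Ndufa4l2 lies near Ndufa4, and KO and WT points overlap except at Cox7a1.

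The 3 most open promoters of the chain per length were those of Atp5g1, Atp5d and Atp5b of complex V, while Atp5e, Atp5j2 and Atp5l ranked 70, 76 and 78 of 85. The median over complex V was 100.2 CPM per kb, beside 97.2 over the whole chain. Atp5g1, 1 of 3 genes for the same membrane ring subunit c, had 203 ± 19.2 CPM per kb in KO and 202 ± 11.6 in WT (SD, n = 5 each), the highest level per length of the 85 promoters and above 99.3% of all promoter sums. Its sister genes were lower, with 128 ± 8.21 CPM per kb in KO and 116 ± 14.8 in WT at Atp5g2, and 69.4 ± 8.25 in KO and 72.3 ± 3.11 in WT at Atp5g3. The log2 fold changes of the 3 were 0.02, 0.14 and -0.02, and none passed (adjusted p = 0.973, 0.682 and 0.987). Atp5d, a subunit of the rotating stalk, and Atp5b, the catalytic subunit, followed Atp5g1 in level per length and had log2 fold changes of 0.03 and -0.03. Atp5h, a subunit of the peripheral stalk, had 52.8, 68.8, 65.0, 48.9 and 55.4 CPM at its start-site peak in KO and 51.1, 43.1, 52.8, 53.6 and 41.9 CPM in WT. The groups overlapped and the log2 fold change of 0.21 had an adjusted p of 0.356. The lowest estimate among complex V promoters was -0.30 at Atp5j2, a membrane subunit (adjusted p = 0.570).

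Among single peaks 2 were called, both distal intergenic. Of 243 peaks, 153 held enough counts to test. The other 90, with mean counts of 0.9 to 10.4 per library, were not. Of 109 tested promoter peaks edgeR called 0, against 1.60% of all tested promoter peaks (1.26% higher and 0.341% lower in KO), and 4 had an unadjusted p under 0.05, those of Cox7b, Atp5h and Ndufs7 with higher values in KO and that of Ndufa5 with lower. Of all 16147 tested promoter peaks 1394 had such a p. DESeq2 and limma-voom called 0 as well, with 1 and 5 at an unadjusted p under 0.05. For all 109 the 95% interval lay within 2-fold. Of 44 tested peaks outside promoters, 1 was called higher and 1 lower in KO, against 4.39% and 1.40% of all such peaks and 5.80% in either direction. Over all 153 peaks the 2 calls compare with 3.85% of all peaks (2.94% higher and 0.911% lower), and 2 peaks had groups that did not overlap, against 3.96% of all peaks. The members' shares were thus near or below the background. The median log2 fold change was -0.03 at promoter peaks and 0.00 at the others, beside -0.01 and 0.00 over all such peaks.

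**Figure D3:**
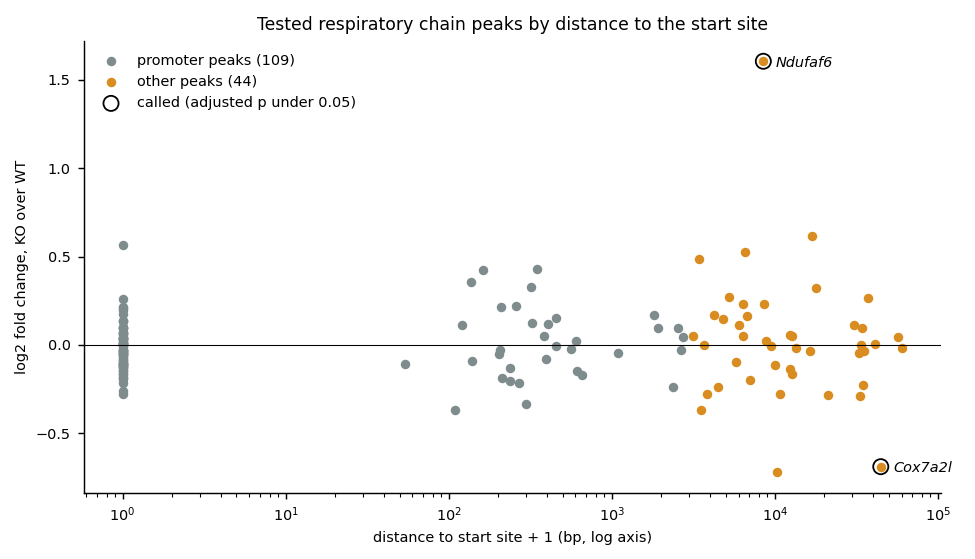
Log2 fold change (KO over WT) of the 153 tested respiratory chain peaks against distance to the annotated start site (log axis), with promoter peaks in grey, others in orange and the called peaks ringed. Promoter peaks lie between -0.37 and 0.57, and the 2 called peaks, of Ndufaf6 (1.61) and Cox7a2l (-0.69), lie far from their start sites.

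The peak called higher in KO lies 8516 bp upstream of Ndufaf6, which encodes an assembly factor needed to build complex I. This distal intergenic peak (chr4:11084721-11085023, mm10) had 16, 13.6, 23.3, 26.1 and 23.0 CPM in KO and 10.9, 3.86, 7.84, 9.29 and 4.73 CPM in WT. Every KO library lay above every WT library. The log2 fold change was 1.61 ± 0.23 (SE), a ratio of 2.24 to 4.20 at 95%, with an edgeR adjusted p of 1.16e-07. The gene's own start-site peak averaged 30.3 ± 4.62 CPM in KO, against 31.5 ± 2.98 CPM in WT (SD, n = 5 each, log2 fold change -0.14, adjusted p = 0.758). The other tested distal peak of Ndufaf6, 12798 bp upstream, had 15.7 ± 3.61 CPM in KO, against 15.8 ± 4.52 CPM in WT. Within 100 kb of the called peak 14 peaks were tested and it alone was called. Of the 14, 5 had an unadjusted p under 0.05, the called peak included. The protein-coding RefSeq genes within that distance are Plekhf2, Ndufaf6 and Trp53inp1. Peaks assigned to Trp53inp1 with such a p were higher in KO. Their log2 fold changes were 0.24 (start site), 0.44 and 0.55 (edgeR adjusted p = 0.291, 0.147 and 0.106). The other tested peaks of Trp53inp1 had -0.05, -0.06 and -0.15. A peak without a symbol was lower in KO (-0.57, adjusted p = 0.207). The called peak is assigned to Ndufaf6 because that gene is nearest, which does not show that it acts on it. Summed over all 9 peaks, Ndufaf6 had 99.1 ± 9.71 CPM in KO, against 82.5 ± 7.96 CPM in WT (log2 fold change 0.25, adjusted p = 0.118).

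The peak called lower in KO lies 44732 bp upstream of Cox7a2l, whose product helps to join complexes III and IV into supercomplexes. This distal intergenic peak (chr17:83559065-83559519, mm10) had 15.2, 15.6, 23.3, 20.2 and 19.5 CPM in KO and 27.2, 34.2, 26.6, 32.9 and 29.0 CPM in WT. Every KO library lay below every WT library. The log2 fold change was -0.69 ± 0.15 (SE), a ratio of 0.504 to 0.761 at 95%, with an edgeR adjusted p of 0.000988. The call ended when every library was thinned to the smallest total (log2 fold change -0.64, adjusted p = 0.210). The start-site peak of Cox7a2l had 68.2 ± 6.05 CPM in KO, against 63.9 ± 5.30 CPM in WT (SD, n = 5 each, log2 fold change 0.07, adjusted p = 0.830). Kcng3, a potassium channel gene, has its gene body 14504 bp from the peak, with the start site on its far end, and Eml4 lies 78704 bp away. Of 10 tested peaks within 100 kb, this one alone was called. Summed over its 17 peaks, Cox7a2l had 182 ± 12.9 CPM in KO, against 188 ± 8.14 CPM in WT (log2 fold change -0.06, adjusted p = 0.796).

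**Figure D4:**
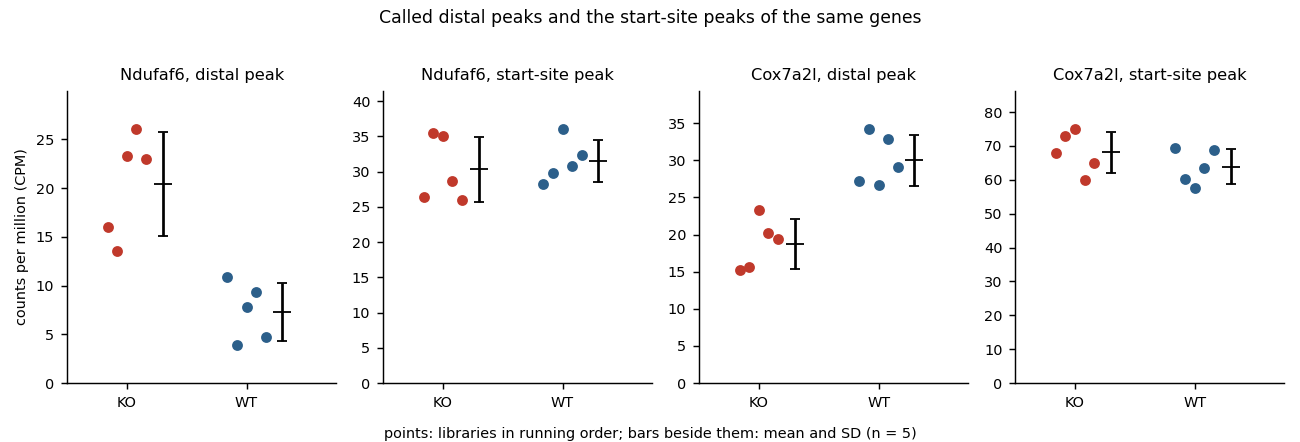
Accessibility in CPM of the called distal peaks of Ndufaf6 and Cox7a2l beside the start-site peaks of the same genes, with points for the KO and WT libraries and bars for mean and SD (n = 5 each). KO and WT do not overlap at the distal peaks and overlap at the start-site peaks.

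The other distal and intronic members with an unadjusted p under 0.05 did not pass. A peak 10341 bp downstream of the Cox4i1 start site had 6.25 ± 2.46 CPM in KO, against 8.86 ± 3.23 CPM in WT (log2 fold change -0.72, adjusted p = 0.208). An intergenic peak 6529 bp upstream of Ndufv1 had a log2 fold change of 0.52 (adjusted p = 0.338), and intronic peaks assigned to Ndufb9 and Ndufa13 had 0.61 and 0.32 (adjusted p = 0.359 and 0.249). These intronic peaks lie 16994 bp downstream of the start site of Ndufb9 and 17800 bp upstream of that of Ndufa13. At 44 peaks outside promoters the intervals were wider than at promoters, and 39 of the 44 lay within 2-fold.

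Nearest-gene assignment left some respiratory chain promoters under the symbol of a neighbour. For 6 more genes of the chain the RefSeq promoter window overlapped a promoter peak assigned to another gene, namely Ndufa11 (Vmac), Ndufb1 (Cpsf2), Ndufb11 (Rbm10), Ndufaf5 (Esf1), Ndufaf7 (Cebpz) and Atp5f1, now Atp5pb (Wdr77). EdgeR called 0 of these 6 peaks, with 0 at an unadjusted p under 0.05, and their log2 fold changes ran from -0.18 at Ndufaf7 to 0.12 at Ndufa11. They are not counted among the 243.

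Median fold changes of promoters were set beside the NRF1 and YY1 letters. Promoter sums with the NRF1 letters (21 genes) had a median log2 fold change of -0.01 and those without (49 genes) -0.03. Those with the YY1 letters (8 genes) had -0.04 and those without (62 genes) -0.01. For the ETS letters the medians were -0.08 with (5 genes) and -0.02 without (65 genes). For the SP letters they were -0.04 with (35 genes) and 0.02 without (35 genes). For the CRE letters they were -0.08 with (3 genes) and -0.01 without (67 genes). Median accessibility per length was 98.8 CPM per kb with and 96.9 without the NRF1 letters, and 68.3 CPM per kb with and 100.9 without the YY1 letters. It was 120 with and 97.6 without the ETS letters, 101.1 with and 97.6 without SP, and 93.5 with and 98.8 without CRE. None of these differences was tested.

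The chain was set beside 2 other families of genes that are active in nearly every cell. Of 64 tested promoter sums of mitochondrial ribosome genes (Mrpl and Mrps) and 36 of proteasome genes, edgeR called 0 in each, with 3 in each at an unadjusted p under 0.05. Their median log2 fold changes were 0.03 and 0.00, beside -0.02 for the respiratory chain. Median promoter level per length was 87.3 CPM per kb for mitochondrial ribosome genes, 90.3 for proteasome genes, 97.2 for the respiratory chain and 87.7 for all promoter sums. The difference between families was not tested.

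Of the chain's genes in mitochondrial DNA, the 10 mitochondrial peaks overlap ND1, ND2, COX1, ND4, ND5, ND6 and CYTB, and no peak overlaps COX2, COX3, ATP6, ATP8, ND3 or ND4L. These peaks held 1.31% ± 0.527 of in-peak counts in KO and 1.10% ± 0.260 in WT (SD, n = 5 each), and a two-sided exact permutation test over libraries gave p = 0.437. The difference of 0.207 percentage points became 0.0407 without Sample_2270_KO and turned to -0.0544 without the 3 shallowest libraries. No single library left out gave more than 0.339. Their counts ranged between 13291 and 18360 per library (1.38-fold), while nuclear counts ranged 3.28-fold and counts in the 243 nuclear respiratory chain peaks 3.33-fold. They amounted to 1.28 to 1.77 counts per base of peak in each library, where the densest nuclear member peak had 0.125 to 0.402. The share was 1.97% in Sample_2270_KO, the shallowest library, and 0.780% in Sample_2272_KO, the deepest. The sources used here do not give the treatment of duplicate reads, and the share gives no measure of mitochondrial DNA per cell. The nuclear respiratory chain peaks held 0.498% ± 0.0148 of nuclear counts in KO and 0.499% ± 0.00869 in WT.

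**Figure D5:**
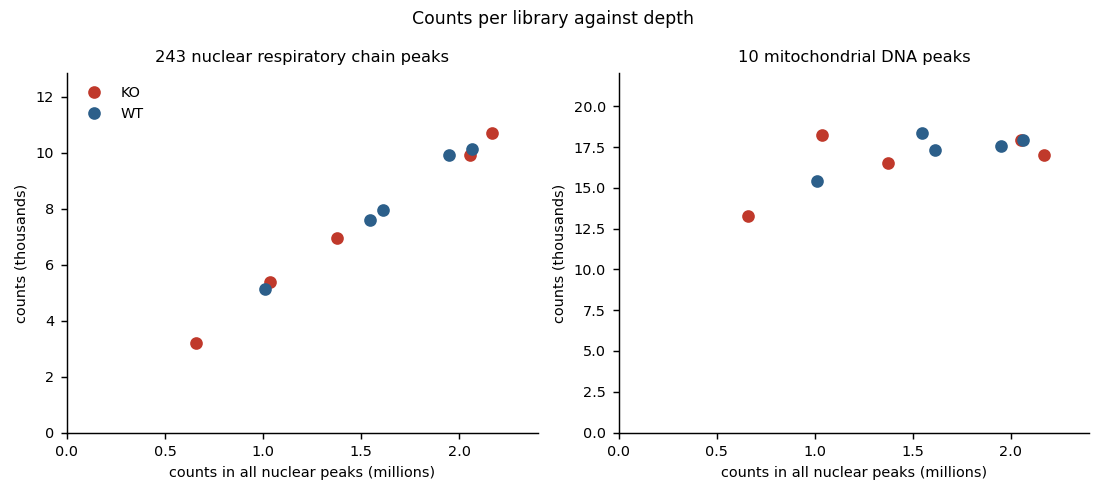
Counts per library (vertical axis in units of 1000) in the 243 nuclear respiratory chain peaks (left) and the 10 mitochondrial DNA peaks (right) against counts in all nuclear peaks, with KO and WT libraries as points. The nuclear members scale with depth in both groups, and the mitochondrial counts stay between 13291 and 18360.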

How the data were processed

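The authors deposited raw ATAC-seq read counts over 1 common peak set, and a second deposited file gives each nuclear peak's class, nearest gene and distance in bp to its start site. Per the submitters' processing notes, the tools were MACS2 2.1.2, Bowtie2 2.3.5, DESeq2 1.22.2, ChIPseeker 1.18.0 under R 3.5.3, SAMtools 1.9, Trimmomatic 0.36, Picard, bcl2fastq 2.20 and deepTools (3.3.0, 3.5.2), with mm10. The sources used here do not give the treatment of duplicates, any shift to the cut site or pooling before peak calling. Peaks with a gene number but no symbol numbered 7971, of which RefSeq named 7932, and none of those names met the rule. They stayed out of gene sums only.

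Counts were tested with edgeR 4.0.16 (TMM, filterByExpr by group, glmQLFit and glmQLFTest, no covariate) in R 4.3.3, per peak, per gene (sum over all peaks of a symbol) and per gene over promoter peaks, with all 10 libraries. Benjamini-Hochberg adjustment ran over the 34910 peaks, 12489 genes or 10240 promoter sums tested, with a threshold of 0.05. The procedure was tested on simulated data. Intervals are 95% and rest on the test's F statistic. DESeq2 1.42.0, limma-voom (limma 3.58.1), other scaling and filters, thinning and leaving out libraries were the alternatives. Of 20 library pairs within a group, 12 differed by no more than counting noise over peaks with a mean count of at least 20. Because the labels list them as separate samples and counts per peak are low, all were kept as separate libraries, and summing such libraries was tried as an alternative added after the data were seen. The members, gene lists and motifs were chosen with earlier results of these data known. Named genes are those with a called peak or sum, the 5 per direction with the smallest p of the gene test, the 2 per role with the highest promoter CPM, the complex II subunits, Atp5g1 to Atp5g3 and the isoform pairs. Others (single peaks at an unadjusted p under 0.05, further subunits and sequence examples) were named after their values were seen. Sequences of the called distal peaks and of proteins were not used here, and no genome was used.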

Additional observations from a re-analysis of the deposited data

Results flagged for a closer look

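A library stood apart from the other 4 of its group in 7 of 104 groups of 5 examined (a gap to its nearest neighbour above Dixon's 95% critical value), and chance gives about 1 in 20. Sample_2270_KO had the lowest Atp5g3 gene sum, 38.3 CPM against 49.6 to 52.4 CPM in the other KO libraries, and the highest Ndufs8 gene sum, 128 CPM against 98 to 106 CPM. It is the library with the lowest total. Among KO libraries the highest values were also apart for Cox6a2 in Sample_2269_KO (13.6 CPM, others 6.99 to 8.80), Cox7a1 in Sample_2272_KO (24.5 CPM, others 20.7 to 21.7) and Cox8a in Sample_2271_KO (58.0 CPM, others 46.7 to 48.9). Among WT libraries Sample_2277_WT had the lowest Ndufa5 gene sum (59.4 CPM, others 69.0 to 72.6), and Sample_2274_WT had the highest sum over respiratory chain peaks outside promoters (911 CPM, others 814 to 832).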

How the results depend on the processing

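Counts of 0 called promoter peaks, genes and promoter sums held under every alternative that was run, as did 2 called peaks except in 3 settings. Alternatives that left the counts of a fit unchanged reused the main fit, so no call could differ there. A minimum mean count of 20 left 1 called peak of all members and 1 outside promoters, because the Ndufaf6 peak was no longer tested. Counting subunits only also left 1 and 1, because Ndufaf6 is an assembly factor. Thinning every library to the smallest total left 0 and 0 of 95 tested peaks (edgeR, 7 at an unadjusted p under 0.05) and moved the median log2 fold change of promoter peaks to 0.0206. After thinning the Ndufaf6 peak was no longer tested, while the Cox7a2l peak was tested and not called. Without the 3 libraries with the lowest totals, the KO minus WT difference in the mitochondrial DNA share turned to -0.0544 percentage points (exact permutation p = 0.800), against 0.207 with all libraries.

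Leaving out each library in turn gave 2 to 2 called peaks, 2 to 2 outside promoters and 0 to 0 promoter peaks, genes and promoter sums. The median log2 fold change ran from -0.03 to 0.01 over all member peaks, from -0.04 to 0.01 at promoters and from -0.03 to 0.07 elsewhere, and the summed level from -0.01 to 0.01. The mitochondrial share difference ran from 0.0407 to 0.339 percentage points. The Ndufaf6 peak was called in all 19 alternatives that held it (adjusted p at most 2.67e-05) and the Cox7a2l peak in 21 of 22. Filling in RefSeq symbols, a promoter bound of 1 kb and counting subunits only reused the main peak fit. Those settings could not change either call. No called peak was lost when agreeing libraries were summed. No paired analysis was possible because the running numbers in the labels are not shared between the groups. At a median of 49.7 counts per tested promoter peak and 16.95 elsewhere, small changes of single peaks were not detectable.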

Other observations

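Genes that feed or build the chain without bearing its names were examined as lists chosen with earlier results known. Of 19 tested genes for other electron carriers and coenzyme Q synthesis, 32 for other assembly factors and 17 for regulators such as Nrf1, Gabpa, Tfam and Polrmt, edgeR called 0 gene sums, with 1, 1 and 0 at an unadjusted p under 0.05. Of all 12489 gene sums 2.19% were called and 1556 had an unadjusted p under 0.05. Of 62 tested peaks of the other assembly factors 2 were called, a share near the 3.85% of all tested peaks. An intronic peak assigned to Cox10, which makes haem A precursors, had 9.62 ± 1.92 CPM in KO, against 3.93 ± 0.875 CPM in WT (SD, n = 5 each, 2.41-fold, edgeR adjusted p = 0.00314). A peak annotated as 3' UTR and assigned to Taco1, a translational activator of mitochondrial COX1, had 20.4 ± 3.51 CPM in KO, against 29.1 ± 7.41 CPM in WT (0.696-fold, adjusted p = 0.0363), with overlapping groups. This peak lies upstream of the Taco1 start site, so its class does not place it in the 3' UTR of Taco1.

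In the citric acid cycle list 1 of 16 genes was called, against 2.19% of all gene sums. Suclg1, a subunit of succinyl-CoA synthetase, fell to 87.1 ± 8.47 CPM over its peaks in KO, against 104.5 ± 7.68 CPM in WT (SD, n = 5 each, 0.814-fold, edgeR adjusted p = 0.0235). Its values were 85.6, 98, 93.3, 78.2 and 80.3 CPM in KO and 107.6, 104.3, 97.7, 115.8 and 97.3 CPM in WT. A distal intergenic peak 31220 bp from its start site had 8.24 ± 2.65 CPM in KO, against 16.7 ± 2.15 CPM in WT (0.485-fold, adjusted p = 0.000693), and no KO library overlapped a WT library there. It was the only 1 called of 32 tested peaks of the list, against 3.85% of all tested peaks. Of the list's 16 promoter sums, that of Suclg1 included, edgeR called 0, against 0.684% of all promoter sums. Of these 16, 0 were lower in KO at an unadjusted p under 0.05.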
